A study of Homo sapiens with 4 samples.

Results

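The genes described here are the interleukins and their receptors, the chemokine ligands and 14 further genes of inflammatory signalling in DAOY, a cell line from a medulloblastoma, which is a malignant tumour of the cerebellum. Members were all symbols without a hyphen in the raw count table that were made of CXCL or CCL and a number or that began with IL and a number, and CX3CL1, PTGS2, NFKBIA, TNFAIP3, ICAM1, VCAM1, TNF, LIF, CSF2, CSF3, NFKB1, NFKB2, RELB and BIRC3 were added by name. This gave 119 of the 20363 genes of the table, and 71 of them reached 10 counts in 2 or more libraries and were kept. They were 16 of 32 chemokine ligands, 12 of 29 interleukin ligands, 3 of 4 other cytokines, 29 of 41 interleukin receptors, 1 of 3 soluble inhibitors (IL18BP), the enzyme IL4I1, 3 of 3 NF-kB subunits, 3 of 3 feedback proteins of NF-kB and 3 of 3 effector targets. The RNA was sequenced in 4 libraries, 1 per condition and with no replicate. DAOY cells that overexpressed ZNF521 were treated with SAG or with DMSO, and control cells (CTL) were treated with SAG or with DMSO. ZNF521 is a zinc finger co-factor of transcription, SAG is an agonist of SMO that activates the SHH pathway, and DMSO is its vehicle. The SAG dose of the sequenced cells is not given in the sources used here. In the study's methods the ZNF521 vector is a lentivirus, human or mouse constructs served as ZNF521, and transduced cells were sorted for EGFP. The deposited design calls the CTL cells WT while the methods describe a control vector, so that an effect of ZNF521 and one of transduction cannot be told apart.

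NF-kB is a family of dimeric transcription factors that is held in the cytoplasm by inhibitor proteins such as IkB-alpha, the product of NFKBIA. Cytokines such as TNF and IL-1 lead to the destruction of the inhibitor, the dimer enters the nucleus, and it activates genes of chemokines, cytokines, adhesion molecules and of its own inhibitors. Chemokines attract leukocytes through G protein-coupled receptors, with CXCL ligands of the ELR type drawing mainly neutrophils and CCL2 and CCL7 drawing monocytes. Interleukins act through receptors of several chains, of which gp130, the product of IL6ST, is shared by IL-6, IL-11 and LIF. In tumours of the nervous system such ligands can come from tumour cells as well as from immune and vascular cells.

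Total counts ran from 12294833 to 16314685 per library. The targeted transcript ZNF521 had normalized counts (counts divided by 1 size factor per library) of 2072 with SAG and 2013 with DMSO in ZNF521 cells, against 751 with SAG and 714 with DMSO in CTL cells. GLI1, a target of SHH signalling, had 318 in ZNF521 cells and 324 in CTL cells with SAG, against 44.2 in ZNF521 cells and 75.4 in CTL cells with DMSO. Of 14 leukocyte markers 2 passed the filter on low counts (CSF1R and TYROBP), and PTPRC, which marks nearly all leukocytes, lay between 0.844 and 4.02 normalized counts. The summed normalized counts of the leukocyte list were 68.3 with SAG and 115 with DMSO in ZNF521 cells, against 125 with SAG and 117 with DMSO in CTL cells. Among neural markers NES lay between 1518 and 1732 and SOX2 between 203 and 312. ZIC1 lay between 241 and 303, ZIC2 between 176 and 274 and PAX6 between 294 and 307. In the same list ATOH1 and BARHL1, markers of cerebellar granule progenitors, were at no more than 2 raw counts in any library. The CTL library with DMSO stood apart. Its log2 values scattered around the gene means with an SD of 0.273 (9161 genes of mean 200 or more), against 0.126 to 0.142 in the other 3 libraries, and its 9 fibroblast markers summed to 47842, against 22669 to 25006 in the others. The gap in that sum lay mainly in 3 collagens: COL1A1 had 15912 in that library, against 4913 to 5316 in the others, COL1A2 had 9095, against 4822 to 5167, and COL3A1 had 19242, against 9351 to 11726. LUM (69.4, against 128 to 141) and PDGFRA (33.2, against 46.3 to 111) were lowest there. In such bulk RNA, fewer cells of a type and less RNA per cell cannot be told apart.

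Among the ligands, DAOY cells made CCL2 transcripts at the highest level. CCL2, a chemokine for monocytes, had 6079.5 with SAG and 5715 with DMSO in ZNF521 cells, against 6386 with SAG and 4124 with DMSO in CTL cells. Per kilobase of exon its mean level was 2882 normalized counts, against 442 for CCL5, 371 for IL32, 297 for CXCL14, 193 for CSF2, 191 for CXCL16 and 183 for TNF. CCL2 was at a similar level in 3 libraries and lower in CTL cells with DMSO. CCL5, which attracts T cells and monocytes, had 618 with SAG and 739.8 with DMSO in ZNF521 cells, against 553 with SAG and 502 with DMSO in CTL cells, and both ZNF521 libraries lay above both CTL libraries. IL32, an inflammatory cytokine with no mouse orthologue, had 1090.000 with SAG and 1406 with DMSO in ZNF521 cells, against 1141 with SAG and 1125 with DMSO in CTL cells, with ZNF521 cells with DMSO above the rest. CXCL14, a chemokine of epithelia and brain, had 526 with SAG and 522 with DMSO in ZNF521 cells, against 616 with SAG and 686 with DMSO in CTL cells, and CXCL16, which is made as a membrane-bound chemokine, had 457 with SAG and 523 with DMSO in ZNF521 cells, against 495 with SAG and 653 with DMSO in CTL cells. CXCL14 was lower in both ZNF521 libraries than in either CTL library, whereas the libraries overlapped for CXCL16. IL34, the ligand of the CSF1 receptor other than CSF1, had 117 with SAG and 144 with DMSO in ZNF521 cells, against 129 with SAG and 115 with DMSO in CTL cells, and the groups overlapped.

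**Figure D1:**
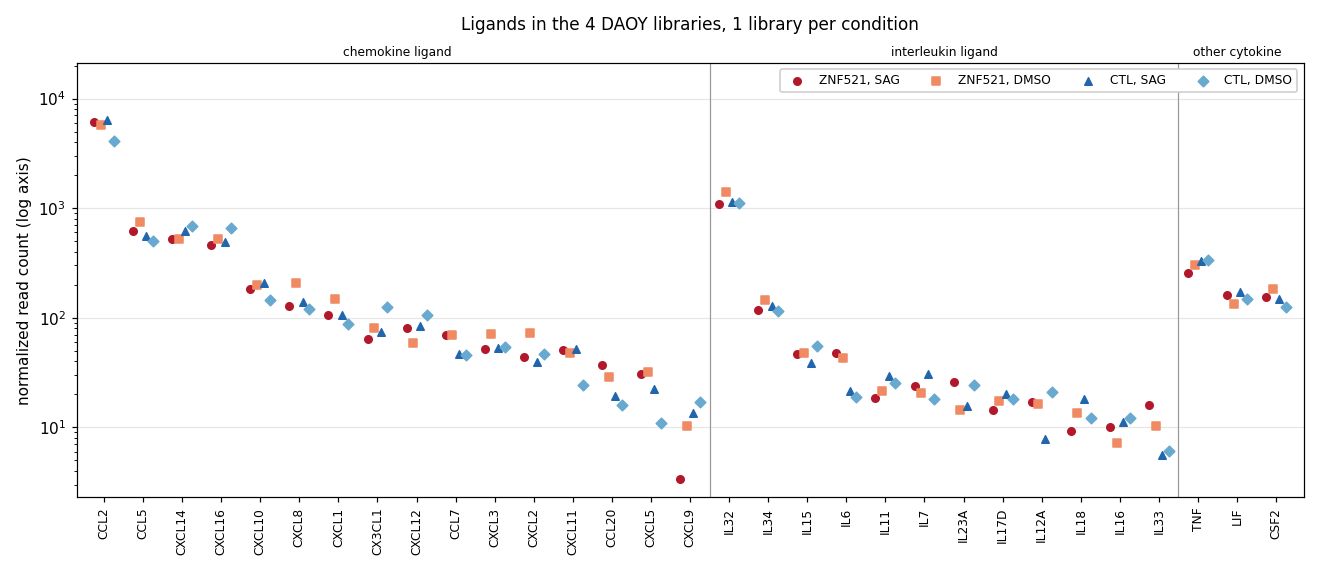
Normalized read counts on a log axis of the 31 kept chemokine ligands, interleukin ligands and other cytokines, with 1 point per library (circles and squares for ZNF521 cells with SAG and with DMSO, triangles and diamonds for CTL cells with SAG and with DMSO). CCL2 and IL32 have the most counts of the ligands, and the points of IL6, CCL20 and CCL7 fall into separate ZNF521 and CTL pairs.

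The 48 members that were not kept included several inflammatory ligands. IL1A, IL1B and CSF3 had at most 9, 8 and 8 raw counts in any library, IL10 had at most 2, and 46 of the 48 were under 10 counts in every library. The other 2 were IL17B, with 4 counts with SAG and 3 with DMSO in ZNF521 cells, against 2 with SAG and 11 with DMSO in CTL cells, and IL5RA, with 15 counts with SAG and 4 with DMSO in ZNF521 cells, against 9 with SAG and 3 with DMSO in CTL cells. Just inside the filter were IL16, with 12 counts with SAG and 7 with DMSO in ZNF521 cells, against 10 with SAG and 12 with DMSO in CTL cells, and IL33, with 19 counts with SAG and 10 with DMSO in ZNF521 cells, against 5 with SAG and 6 with DMSO in CTL cells. Genes such as IL33 and CXCL9 passed through the libraries in which they were high, so that the counts over kept members do not stand for all 119. Some receptor chains were below the filter as well. IL2RA and IL2RG, the alpha and common gamma chains that pair with IL2RB, had at most 5 and 3 counts. Some receptors of ligands made by these cells were near 0 in a list of chemokine and cytokine receptors outside the naming rule. CXCR2, the receptor of CXCL1, CXCL2, CXCL3, CXCL5 and CXCL8, had at most 3 raw counts. CCR2, a receptor of CCL2 and CCL7, had at most 2, and CCR6, the receptor of CCL20, at most 1. These 3 genes were picked after their values had been seen, and 14 of the 31 receptors in the list passed the filter on low counts. Among the 14, CCR1 had 86.1 with SAG and 75.1 with DMSO in ZNF521 cells. In CTL cells CCR1 had 80.1 with SAG and 82.4 with DMSO, and CXCR6 lay between 12.3 and 22.1 over the libraries. CXCR4, the receptor of CXCL12, had 122 with SAG and 94.7 with DMSO in ZNF521 cells, against 129 with SAG and 105 with DMSO in CTL cells.

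The first comparison set ZNF521 cells against CTL cells, to ask what ZNF521 does to these genes in each treatment. No member passed an adjusted p of 0.05 in edgeR's quasi-likelihood test with treatment as block, where 0.00668% of the 14970 tested genes did (1 gene, ZNF521 itself), and DESeq2 called 0 members too. The study also set 0.05 as the limit on the unadjusted p, but in a paired t test after a filter on fold change. Its counts of genes are therefore not comparable with those here. With this limit edgeR had 8 of 71 members (11.3%) against 5.48% of all tested genes. Of these, 6 were higher in ZNF521 cells (IL6, CCL20, CXCL5, CCL7, PTGS2 and IL6ST, 8.45% of members against 2.36% of all tested genes) and 2 were lower (IL2RB and CXCL9, 2.82% against 3.11%). DESeq2 had IL2RB alone at this threshold. Without the CTL library with DMSO the count was 5 (IL6, CCL7 and IL10RA higher, IL2RB and VCAM1 lower) against 4.05% of all tested genes, and without the CTL library with SAG it was 24 against 27.8%.

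IL6, which encodes the cytokine interleukin-6, was the ligand with the strongest evidence of a difference for ZNF521. It had 47.2 with SAG and 43.2 with DMSO in ZNF521 cells, against 21.4 with SAG and 19.1 with DMSO in CTL cells, so that both ZNF521 libraries lay above both CTL libraries, with close values for SAG and DMSO within each kind of cells. The fitted log2 fold change was 1.14 (standard error 0.320, 2.21-fold, edgeR adjusted p = 0.679), and it ran from 1.07 to 1.23 over 10 settings. The ratio of ZNF521 to CTL cells was 2.20 in SAG and 2.23 in DMSO, with exact 95% intervals for counting error alone of 1.29 to 3.93 and 1.27 to 4.06. CCL20, a chemokine for CCR6-bearing lymphocytes and dendritic cells, had 37.1 with SAG and 28.8 with DMSO in ZNF521 cells, against 19.2 with SAG and 16.1 with DMSO in CTL cells. Its log2 fold change was 0.89 (standard error 0.352, edgeR adjusted p = 0.893), and the counting interval of the DMSO ratio, 0.923 to 3.49, held 1. CXCL5, an ELR chemokine, had 30.4 with SAG and 31.9 with DMSO in ZNF521 cells, against 22.6 with SAG and 11.1 with DMSO in CTL cells. CTL cells with DMSO were the low library there, and the ratio of ZNF521 to CTL cells was 1.35 in SAG and 2.84 in DMSO. Its log2 fold change of 0.90 (standard error 0.390, edgeR adjusted p = 0.907) was 0.47 without the CTL library with DMSO and 1.46 without the CTL library with SAG. Fits with a library left out have no block, so that such fold changes for ZNF521 also take in treatment. CCL7, a monocyte chemokine next to CCL2 on chromosome 17, had 70.03 with SAG and 69.97 with DMSO in ZNF521 cells, against 46.2 with SAG and 45.2 with DMSO in CTL cells. Its ratio was 1.51 in SAG and 1.52 in DMSO, at a log2 fold change of 0.60 (standard error 0.254, edgeR adjusted p = 0.907). All 6 genes named as higher kept a positive log2 fold change in every setting run, while at these counts of 11 to 70 for the 4 ligands the counting error alone is wide.

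The promoters of IL6, CCL20 and CXCL5 are shown because these ligands were higher in ZNF521 cells and each promoter holds a match to the kB consensus, the sequence that NF-kB dimers bind. Of the other genes named as higher, IL6ST held a match too, while CCL7 and PTGS2 were not among the members with a match. The consensus was searched as GGGRNNYYCC, with R for A or G, Y for C or T and N for any base. The lines give the 100 bases from 140 to 41 before the start of transcription in RefSeq (GRCh38.p14), 5′ to 3′ on the strand of the gene, with matches on either strand in capitals and overlapping matches run together. IL6 lies on the plus strand (chr7:22727060-22727159), CCL20 on the plus strand (chr2:227813702-227813801) and CXCL5 on the minus strand (chr4:73998718-73998817).
IL6: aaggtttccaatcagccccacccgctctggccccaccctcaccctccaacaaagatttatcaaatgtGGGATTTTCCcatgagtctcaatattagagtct
CCL20: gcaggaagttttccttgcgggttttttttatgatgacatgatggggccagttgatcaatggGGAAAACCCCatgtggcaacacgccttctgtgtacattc
CXCL5: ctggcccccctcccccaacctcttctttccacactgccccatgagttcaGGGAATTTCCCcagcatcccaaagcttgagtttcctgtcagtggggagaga
The match began 73 bases before the start in IL6, 79 in CCL20 and 91 in CXCL5. Over the window from 250 bases before to 50 after the start, a kB match on either strand was found in 3956 of 35116 promoters of all genes (11.3%) and in 27 of 82 promoters of kept members (32.9%), which belonged to 26 of the 57 members with an entry. The AP-1 letters TGANTCA, searched on both strands, were found in 7.71% of all promoters and in 13 of 82 member promoters (15.9%), CCL7, CXCL14, CXCL8 and CXCL11 among them. The GLI letters GACCACCCA were found in 83 of all promoters (0.236%) and in 0 of 82. A match describes letters and not a bound site, and the list was in part assembled from genes known as NF-kB targets.

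Of the ELR chemokines, which lie near each other on chromosome 4, CXCL8, CXCL1, CXCL2 and CXCL3 were, like CXCL5, highest in ZNF521 cells with DMSO. In CXCL5 the ZNF521 library with SAG was nearly as high (30.4 against 31.9), and CTL cells with DMSO were the low library. CXCL8, which encodes interleukin-8, had 128 with SAG and 206 with DMSO in ZNF521 cells, against 139 with SAG and 119.6 with DMSO in CTL cells. CXCL1 had 105 with SAG and 148 with DMSO in ZNF521 cells, against 105 with SAG and 88.5 with DMSO in CTL cells, CXCL2 43.9 with SAG and 73.1 with DMSO in ZNF521 cells, against 39.5 with SAG and 46.2 with DMSO in CTL cells, and CXCL3 51.5 with SAG and 71.0000 with DMSO in ZNF521 cells, against 53.002 with SAG and 54.3 with DMSO in CTL cells. In these 4 genes the ZNF521 library with DMSO was the highest and the other 3 libraries were close to each other. The ratio of ZNF521 to CTL cells in SAG was 0.924 for CXCL8, 1.005 for CXCL1, 1.11 for CXCL2 and 0.970 for CXCL3. In DMSO it was 1.70 for CXCL8 (counting interval 1.34 to 2.15), 1.65 for CXCL1, 1.56 for CXCL2 and 1.29 for CXCL3, where the interval of CXCL3, 0.890 to 1.88, held 1. Their log2 fold changes for ZNF521 lay between 0.17 (CXCL3) and 0.41 (CXCL2), with edgeR adjusted p of at least 0.962. Whether the ratios differ between treatments was not tested, since the model has no replicate for it. CXCL2 and CXCL3 were named after their values had been seen.

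The promoters of the 4 genes are shown for their shared letters, over the same 100 bases and with the same use of capitals. CXCL1 (chr4:73869253-73869352) and CXCL8 (chr4:73740429-73740528) lie on the plus strand, and CXCL2 (chr4:74099236-74099335) and CXCL3 (chr4:74038730-74038829) on the minus strand.
CXCL1: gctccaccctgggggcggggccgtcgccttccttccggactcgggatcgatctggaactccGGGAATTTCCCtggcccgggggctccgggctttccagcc
CXCL2: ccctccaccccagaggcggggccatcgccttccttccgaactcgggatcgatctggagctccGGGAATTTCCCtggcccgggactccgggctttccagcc
CXCL3: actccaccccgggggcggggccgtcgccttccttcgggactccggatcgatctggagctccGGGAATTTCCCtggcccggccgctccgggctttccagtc
CXCL8: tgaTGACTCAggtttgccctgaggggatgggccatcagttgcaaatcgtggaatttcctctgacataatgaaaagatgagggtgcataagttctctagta
The same kB letters as in CXCL5, GGGAATTTCC, stood 79 bases before the start in CXCL1, 78 in CXCL2 and 79 in CXCL3. In CXCL8 the capitals mark an AP-1 match, 137 bases before the start. The CXCL8 line also holds tggaatttcc, which departs from the kB letters searched in its leading letter alone and so is not in capitals. Such near copies of a gene can share reads, so that the split of counts among CXCL1, CXCL2 and CXCL3 is uncertain.

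The interferon-linked ELR-negative chemokines, ligands of CXCR3, did not share a pattern. CXCL10 had 184 with SAG and 199 with DMSO in ZNF521 cells, against 205 with SAG and 144 with DMSO in CTL cells, and CXCL11 had 50.6 with SAG and 47.3 with DMSO in ZNF521 cells, against 51.9 with SAG and 24.1 with DMSO in CTL cells. Both were lowest in CTL cells with DMSO, as were CXCL1, CXCL5 and CXCL8, and their values in the remaining libraries were close. The ratio of ZNF521 to CTL cells in CXCL10 was 0.895 in SAG and 1.36 in DMSO. In CXCL11 it was 0.975 in SAG (interval 0.653 to 1.46) and 1.93 in DMSO (interval 1.16 to 3.31). CXCL11 was added after its values had been seen, and its log2 fold change of 0.40 was -0.08 without the CTL library with DMSO. CXCL9, the third ligand of CXCR3, had 3.37 with SAG and 10.3 with DMSO in ZNF521 cells, against 13.5 with SAG and 17.1 with DMSO in CTL cells. It was lower in both ZNF521 libraries, at a log2 fold change of -1.21 (standard error 0.533, edgeR adjusted p = 0.907), on 4 to 17 raw counts per library. That of CXCL9 was -0.59 without the ZNF521 library with SAG and -2.15 without the ZNF521 library with DMSO. The promoters of CXCL10 (chr4:76023538-76023637, minus strand) and CXCL11 (chr4:76036111-76036210, minus strand) are given for comparison with those of the ELR group.
CXCL10: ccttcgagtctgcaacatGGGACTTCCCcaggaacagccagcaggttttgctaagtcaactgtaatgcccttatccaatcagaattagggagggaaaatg
CXCL11: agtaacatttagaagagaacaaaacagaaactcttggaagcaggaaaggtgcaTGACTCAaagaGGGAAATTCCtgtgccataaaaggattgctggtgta
CXCL10 has a kB match 122 bases before the start, and CXCL11 has an AP-1 match at 87 and a kB match at 76.

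Of the 16 chemokine ligands, 11 had a positive and 5 a negative log2 fold change for ZNF521, with a median of 0.26, beside -0.0034 over all tested genes. In single pairs the median log2 ratio was -0.05 in SAG and 0.49 in DMSO. CX3CL1 and CXCL14 were lower and CCL5 was higher in both ZNF521 libraries than in their CTL partners. CX3CL1, a membrane-bound chemokine of neurons and endothelium, had 63.3 with SAG and 81.3 with DMSO in ZNF521 cells, against 73.3 with SAG and 126 with DMSO in CTL cells, with CTL cells with DMSO the high library. Its log2 fold change was -0.45 (standard error 0.232, edgeR adjusted p = 0.941). That of CXCL14 was -0.32 (standard error 0.156, edgeR adjusted p = 0.924), with ratios of 0.853 in SAG and 0.750 in DMSO, and that of CCL5 was 0.35 (standard error 0.163, edgeR adjusted p = 0.918), with ratios of 1.12 and 1.45. CXCL12, the ligand of CXCR4, lay outside the naming rule by its level and had a log2 fold change of -0.46.

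The 12 interleukin ligands split into 7 with a positive and 5 with a negative log2 fold change for ZNF521, with a median of 0.01. Besides IL6, the largest difference was in IL33, an alarmin of tissue cells, which was added after its values had been seen. IL33 passed the filter on low counts through the ZNF521 libraries alone, so that its entry favoured a higher value there. It had 16.03 with SAG and 10.3 with DMSO in ZNF521 cells, against 5.64 with SAG and 6.03 with DMSO in CTL cells, a log2 fold change of 1.13 with a standard error of 0.550 and an edgeR adjusted p of 0.924. IL15, IL7, IL11, IL18, IL23A, IL17D, IL12A and IL16 lay between 7.20 and 55.3 normalized counts in every library, with log2 fold changes from -0.45 (IL11) to 0.23 (IL12A). Of the other cytokines, TNF, the prototype activator of NF-kB, had 258 with SAG and 301 with DMSO in ZNF521 cells, against 332 with SAG and 335 with DMSO in CTL cells, with both ZNF521 libraries below both CTL libraries and a log2 fold change of -0.27 (standard error 0.166, edgeR adjusted p = 0.960). CSF2, which encodes GM-CSF, had 154 with SAG and 181 with DMSO in ZNF521 cells, against 148 with SAG and 125 with DMSO in CTL cells, and both ZNF521 libraries were above both CTL libraries (log2 fold change 0.29, standard error 0.199). LIF, a cytokine of the IL-6 family that signals through gp130, had 163 with SAG and 134 with DMSO in ZNF521 cells, against 170.3 with SAG and 149 with DMSO in CTL cells, with no separation of the groups.

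The receptor with the clearest difference was IL2RB, the beta chain shared by the receptors of interleukin-2 and interleukin-15. It had 61.6 with SAG and 81.3 with DMSO in ZNF521 cells, against 126 with SAG and 156 with DMSO in CTL cells, and both ZNF521 libraries lay below both CTL libraries. The log2 fold change was -0.996 (standard error 0.212, 0.501-fold, edgeR adjusted p = 0.406), and the ratio was 0.487 in SAG (counting interval 0.358 to 0.660) and 0.514 in DMSO (interval 0.387 to 0.678). It ran from -1.20 to -0.81 over 11 settings, whose adjusted p ran from 2.14e-05 without the CTL library with SAG to 1.0. IL15RA, the chain that binds interleukin-15, had 109.7 with SAG and 143 with DMSO in ZNF521 cells, against 121 with SAG and 131 with DMSO in CTL cells, and the groups overlapped (log2 fold change -0.01).

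IL6ST, which encodes the signal-transducing chain gp130, had the most counts of the receptors, with 1956 with SAG and 1594 with DMSO in ZNF521 cells, against 1687 with SAG and 1168 with DMSO in CTL cells. Per kilobase of exon its mean level was 133 normalized counts, below 318 for IL13RA2, 262 for IL13RA1 and 212 for IL27RA. Its log2 fold change for ZNF521 was 0.32 (standard error 0.146, edgeR adjusted p = 0.910), and the ratio was 1.16 in SAG and 1.34 in DMSO. Leaving out CTL cells with DMSO gave IL6ST a log2 fold change of 0.08, leaving out ZNF521 cells with SAG gave 0.14, and leaving out CTL cells with SAG gave 0.59. IL6R, the chain that binds interleukin-6, had 167 with SAG and 116 with DMSO in ZNF521 cells, against 144 with SAG and 108 with DMSO in CTL cells, and IL11RA, the equivalent chain for interleukin-11, had 292 with SAG and 381 with DMSO in ZNF521 cells, against 348 with SAG and 386 with DMSO in CTL cells. The ratios of ZNF521 to CTL cells were 1.16 in SAG and 1.07 in DMSO for IL6R, and 0.837 and 0.972 for IL11RA, with log2 fold changes of 0.15 and -0.15. IL27RA, which pairs with gp130, had 576 with SAG and 589 with DMSO in ZNF521 cells, against 697 with SAG and 634 with DMSO in CTL cells, and IL31RA, a gp130-like chain, had 139 with SAG and 94.7 with DMSO in ZNF521 cells, against 96.98 with SAG and 117 with DMSO in CTL cells. IL31RA was high in 1 library, ZNF521 cells with SAG.

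The interleukin-1 receptor was present in both chains while its ligands were not kept. IL1R1, the binding chain, had 175 with SAG and 191 with DMSO in ZNF521 cells, against 214 with SAG and 186 with DMSO in CTL cells, and IL1RAP, the accessory chain, had 812 with SAG and 683 with DMSO in ZNF521 cells, against 718 with SAG and 566 with DMSO in CTL cells. The counting interval of IL1RAP left out 1 in both pairs, with ratios of 1.13 in SAG and 1.19 in DMSO and a log2 fold change of 0.21 (standard error 0.153). In the interleukin-4 and interleukin-13 group, IL13RA1, a signalling chain, had 1312 with SAG and 1180.2 with DMSO in ZNF521 cells, against 1203 with SAG and 1182 with DMSO in CTL cells, IL13RA2, a decoy receptor, had 609.98 with SAG and 501 with DMSO in ZNF521 cells, against 522 with SAG and 437 with DMSO in CTL cells, and IL4R had 193 with SAG and 236 with DMSO in ZNF521 cells, against 228 with SAG and 253 with DMSO in CTL cells. The ratios of IL13RA1 were 1.09 in SAG and 0.984 in DMSO, and IL13RA2 was higher in ZNF521 cells in each treatment, with ratios of 1.17 in SAG and 1.13 in DMSO. IL7R, the receptor of interleukin-7 and TSLP, had 413 with SAG and 319 with DMSO in ZNF521 cells, against 443 with SAG and 377 with DMSO in CTL cells, and IL3RA, the alpha chain for interleukin-3, had 104 with SAG and 128 with DMSO in ZNF521 cells, against 106 with SAG and 114 with DMSO in CTL cells, with log2 fold changes of -0.18 and 0.06.

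The interleukin-17 receptor chains that met the naming rule were IL17RD, IL17RC and IL17RA. IL17RD, known also as SEF and an inhibitor of FGF signalling, had 877 with SAG and 623 with DMSO in ZNF521 cells, against 833 with SAG and 891 with DMSO in CTL cells. Only the ZNF521 library with DMSO was low, with a ratio to CTL cells of 1.05 in SAG and 0.689 in DMSO. IL17RC had 488 with SAG and 556 with DMSO in ZNF521 cells, against 540.2 with SAG and 612 with DMSO in CTL cells, and IL17RA, the chain common to the family, had 305 with SAG and 345 with DMSO in ZNF521 cells, against 311 with SAG and 428 with DMSO in CTL cells, with ratios under 1 in both treatments. Over the 29 receptors, 14 had a positive and 15 a negative log2 fold change for ZNF521, with a median of -0.01. The 12 receptors outside the naming rule had log2 fold changes for ZNF521 between -0.56 (IL22RA1) and 0.51 (IL1RAPL1). Beyond the receptors, IL18BP, a soluble inhibitor of interleukin-18, had 84.4 with SAG and 102 with DMSO in ZNF521 cells, against 86.8 with SAG and 124 with DMSO in CTL cells, and IL4I1, a secreted amino acid oxidase, had 681 with SAG and 759 with DMSO in ZNF521 cells, against 718 with SAG and 911 with DMSO in CTL cells, both highest in CTL cells with DMSO.

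**Figure D2:**
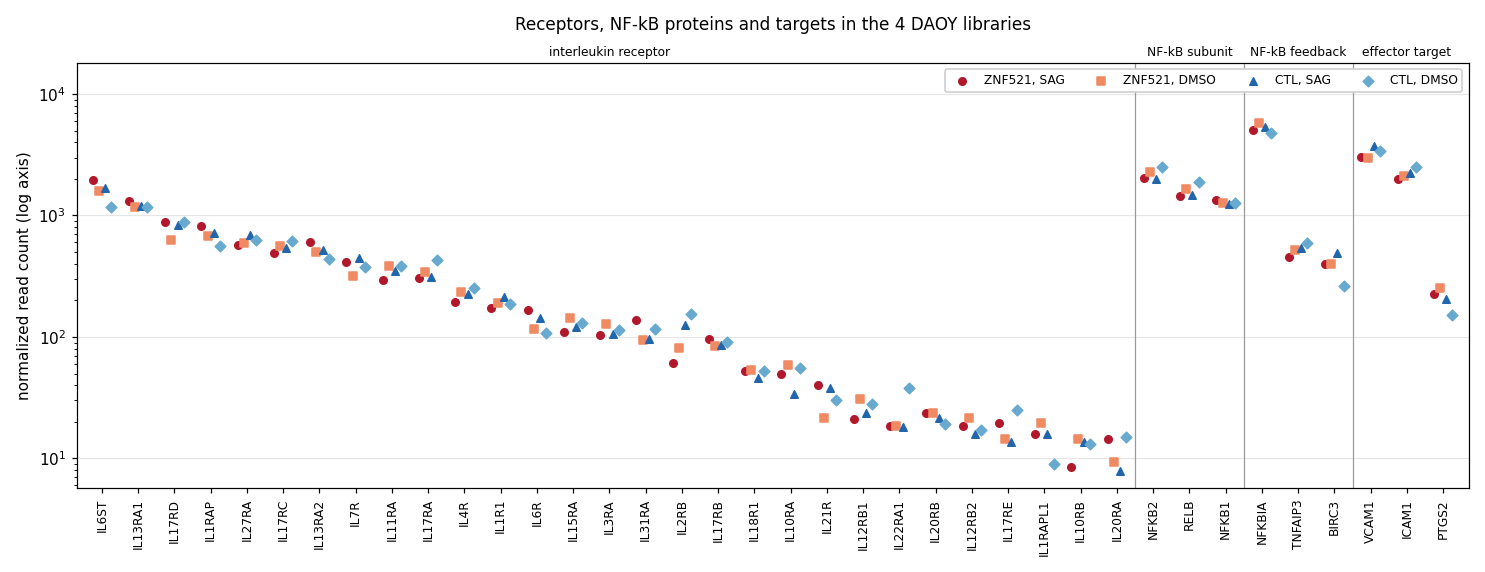
Normalized read counts on a log axis of the 29 kept interleukin receptors, the 3 NF-kB subunits, the 3 feedback proteins and the 3 effector targets, with 1 point per library and the same symbols for the 4 libraries as for the ligands. The points of IL2RB fall into a low ZNF521 pair and a high CTL pair, and IL6ST has the most counts of the receptors.

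The NF-kB subunits had log2 fold changes close to 0 for ZNF521. NFKB1, which encodes p105 and p50, had 1337 with SAG and 1275 with DMSO in ZNF521 cells, against 1253 with SAG and 1267 with DMSO in CTL cells. NFKB2, which encodes p100 and p52, had 2046 with SAG and 2269 with DMSO in ZNF521 cells, against 1987 with SAG and 2509 with DMSO in CTL cells, and RELB, its main partner, had 1433 with SAG and 1651 with DMSO in ZNF521 cells, against 1485 with SAG and 1884 with DMSO in CTL cells. The log2 fold changes for ZNF521 were 0.04 for NFKB1, -0.06 for NFKB2 and -0.13 for RELB, with standard errors from 0.144 to 0.147, so that each lay within 1 standard error of 0. Among the feedback genes, NFKBIA had 5015 with SAG and 5721 with DMSO in ZNF521 cells, against 5339.7 with SAG and 4816 with DMSO in CTL cells, and its log2 fold change was 0.07 (standard error 0.161). TNFAIP3, which encodes the ubiquitin-editing enzyme A20, had 458 with SAG and 519 with DMSO in ZNF521 cells, against 540.2 with SAG and 595 with DMSO in CTL cells. Both ZNF521 libraries were below both CTL libraries, with ratios of 0.847 in SAG and 0.859 in DMSO and a log2 fold change of -0.23 (standard error 0.155, edgeR adjusted p = 0.964). BIRC3, a ubiquitin ligase of the TNF receptor complex, had 399 with SAG and 395 with DMSO in ZNF521 cells, against 487 with SAG and 260.4 with DMSO in CTL cells. Its ratio of ZNF521 to CTL cells was 0.818 in SAG and 1.50 in DMSO.

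The effector targets did not share a direction. PTGS2, which encodes the prostaglandin synthase COX-2, had 224 with SAG and 254 with DMSO in ZNF521 cells, against 205 with SAG and 152 with DMSO in CTL cells, both ZNF521 libraries being above both CTL libraries. Its log2 fold change was 0.42 (standard error 0.194, edgeR adjusted p = 0.910), with ratios of 1.09 in SAG and 1.65 in DMSO, and it was 0.22 without the CTL library with DMSO. VCAM1, an adhesion molecule for lymphocytes and monocytes, had 3026 with SAG and 2967 with DMSO in ZNF521 cells, against 3706 with SAG and 3423 with DMSO in CTL cells, and ICAM1, the ligand of the integrin LFA-1, had 2016 with SAG and 2106 with DMSO in ZNF521 cells, against 2234 with SAG and 2521 with DMSO in CTL cells. In both adhesion genes the ZNF521 libraries were below the CTL libraries. The ratio was 0.816 in SAG and 0.854 in DMSO for VCAM1, and 0.901 and 0.823 for ICAM1. Their log2 fold changes of -0.26 and -0.22 had standard errors of 0.148 and 0.145 (edgeR adjusted p of 0.957 and 0.964).

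NFKBIA, TNFAIP3 and VCAM1 are shown with the same 100 bases as the ligands, since they carry kB matches too, and had log2 fold changes for ZNF521 that were negative or close to 0. NFKBIA lies on the minus strand (chr14:35404790-35404889), and TNFAIP3 (chr6:137867119-137867218) and VCAM1 (chr1:100719602-100719701) on the plus strand.
NFKBIA: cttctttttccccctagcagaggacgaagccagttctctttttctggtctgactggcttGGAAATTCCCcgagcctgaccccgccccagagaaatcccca
TNFAIP3: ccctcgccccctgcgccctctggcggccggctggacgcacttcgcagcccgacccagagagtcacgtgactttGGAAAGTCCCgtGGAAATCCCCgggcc
VCAM1: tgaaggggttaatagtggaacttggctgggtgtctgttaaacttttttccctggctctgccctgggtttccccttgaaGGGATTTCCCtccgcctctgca
The matches began 81 bases before the start in NFKBIA, 67 and 55 in TNFAIP3 and 62 in VCAM1. Among the 26 members with a kB match were thus genes with higher values in ZNF521 cells (IL6, CCL20 and CXCL5) and genes with lower values (TNFAIP3 and VCAM1).

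By counting error alone, which leaves out differences between cultures, the interval of the ratio of ZNF521 to CTL cells left out 1 on the same side in both treatments for 9 of 71 members (12.7%), against 6.19% of all tested genes. The 4 that were higher were IL6, CCL7, IL6ST and IL1RAP, and the 5 that were lower were IL2RB, CXCL14, ICAM1, VCAM1 and TNFAIP3. Among all tested genes 3.13% were higher and 3.06% lower by this rule. Over all 71 members, 37 had a positive and 34 a negative log2 fold change, and the median was 0.01. Both pairs lay on the same side of 1 for 42 members (59.2%), 19 higher and 23 lower, against 50.1% of all tested genes (24.8% higher and 25.3% lower).

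**Figure D3:**
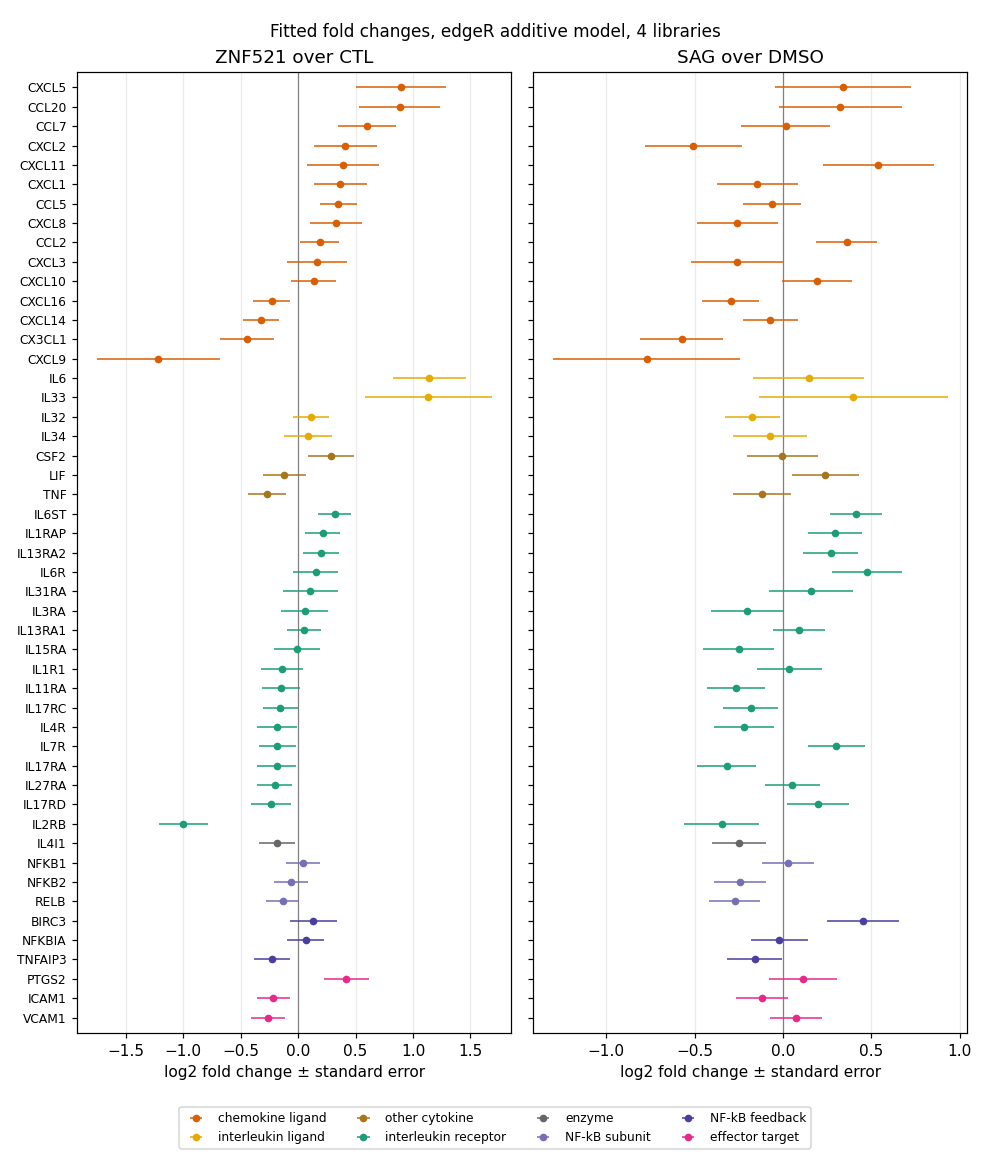
Fitted log2 fold changes of the 49 named genes for ZNF521 over CTL (left) and SAG over DMSO (right), as points with bars of 1 standard error from edgeR's additive model over 4 libraries, coloured by role. For ZNF521 the points of IL6, IL33, CXCL5 and CCL20 lie furthest to the right and those of CXCL9 and IL2RB furthest to the left. For SAG those of CXCL11, IL6R, BIRC3 and IL6ST lie furthest to the right and those of CXCL9 and CX3CL1 furthest to the left. No adjusted p was at or below 0.05.

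The second comparison set SAG against DMSO, with the kind of cells as block, to ask how activation of the SHH pathway goes with these genes. It uses the same 4 libraries as the ZNF521 comparison, so that its values are not independent of those above. No member passed the adjusted threshold in edgeR or in DESeq2, where edgeR called 0.0401% of all tested genes (6 genes). By the unadjusted rule edgeR had 4 of 71 members (5.63%) against 11.3% of all tested genes. IL6ST, IL6R and BIRC3 were higher with SAG (4.23% against 6.21%) and CX3CL1 was lower (1.41% against 5.12%). DESeq2 had IL6ST alone. Without the CTL library with DMSO the count was 11 (4 higher, 7 lower) against 14.6% of all tested genes.

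Both chains of the interleukin-6 receptor were higher with SAG in each kind of cells. For IL6ST the ratio of SAG to DMSO was 1.24 in ZNF521 cells and 1.43 in CTL cells, with counting intervals of 1.16 to 1.32 and 1.33 to 1.55, and a log2 fold change of 0.41 (standard error 0.146, edgeR adjusted p = 0.391). For IL6R it was 1.45 in ZNF521 cells and 1.33 in CTL cells, at a log2 fold change of 0.48 (standard error 0.196, edgeR adjusted p = 0.406). IL6ST and IL6R stayed positive in every setting run, from 0.19 to 0.63 and from 0.37 to 0.58. Their ligand IL6 had ratios of 1.10 and 1.11 (log2 fold change 0.14, standard error 0.314), and LIF had 1.23 and 1.14. Of the other receptors, IL1RAP (ratios of 1.20 in ZNF521 cells and 1.26 in CTL cells), IL7R (1.30 and 1.17) and IL13RA2 (1.23 and 1.19) were higher with SAG in each kind of cells beyond counting error, and IL17RC (0.885 and 0.876) was lower. IL17RD was higher with SAG in ZNF521 cells, with a ratio of 1.42, against 0.929 in CTL cells. Over 29 receptors 14 were positive and 15 negative, with a median of -0.09.

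BIRC3 and CCL2 had a larger ratio of SAG to DMSO in CTL cells than in ZNF521 cells, a difference that was not tested. BIRC3 had a ratio of SAG to DMSO of 1.02 in ZNF521 cells (counting interval 0.887 to 1.17) and 1.86 in CTL cells (interval 1.59 to 2.18), and a log2 fold change of 0.45 (standard error 0.203, edgeR adjusted p = 0.430). CCL2 had 1.07 in ZNF521 cells and 1.54 in CTL cells, at a log2 fold change of 0.36 (standard error 0.173, edgeR adjusted p = 0.450). CXCL11 had 1.08 and 2.14, CXCL5 0.959 and 2.03, CXCL10 0.933 and 1.42, and PTGS2 0.889 and 1.34. In all 6 genes the CTL library with DMSO was the lowest of the 4, and this library is the one that stood apart over all genes. The part of that library in these ratios was not tested. Without it, the log2 fold change for SAG was 0.15 in BIRC3 and 0.12 in CCL2. That fit has no block and sets SAG libraries of both kinds of cells against ZNF521 cells with DMSO. Its values therefore mix SAG with the kind of cells.

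CXCL8, CXCL1, CXCL2 and CXCL3 were described as highest in ZNF521 cells with DMSO. A ratio of SAG to DMSO under 1 in those cells follows from that description, and it is given for its size only. The ratio of SAG to DMSO in ZNF521 cells was 0.627 for CXCL8, 0.717 for CXCL1, 0.605 for CXCL2 and 0.730 for CXCL3, against 1.15, 1.18, 0.848 and 0.970 in CTL cells. Their log2 fold changes for SAG lay between -0.51 (CXCL2) and -0.15 (CXCL1), with edgeR adjusted p of at least 0.482. CX3CL1 was lower with SAG in each kind of cells, with ratios of 0.784 in ZNF521 cells and 0.579 in CTL cells and a log2 fold change of -0.57 (standard error 0.233, edgeR adjusted p = 0.402). Without the CTL library with DMSO that of CX3CL1 was -0.27, and without the ZNF521 library with DMSO it was -0.90. Both of these fits, having no block, mix SAG with the kind of cells. CXCL16 was lower in each kind of cells too, with ratios of 0.881 and 0.752. Of the 16 chemokine ligands 7 were positive and 9 negative for SAG, with a median of -0.07, and of the 12 interleukin ligands 7 were positive and 5 negative, with a median of 0.03.

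NFKB2 and RELB, the pair of the alternative NF-kB pathway, were lower with SAG in both kinds of cells. The ratio of SAG to DMSO was 0.908 in ZNF521 cells and 0.786 in CTL cells for NFKB2, and 0.875 and 0.783 for RELB. The log2 fold changes were -0.24 and -0.27 (standard errors 0.147 and 0.144, edgeR adjusted p of 0.520 and 0.475), so that neither passed the unadjusted threshold. NFKB1 had ratios of 1.06 and 0.982. TNFAIP3 (0.890 and 0.901), TNF (0.862 and 0.984) and ICAM1 (0.964 and 0.880) were under 1 in each kind of cells, and VCAM1 (1.03 and 1.08) above it. NFKBIA had 0.883 in ZNF521 cells and 1.10 in CTL cells. By counting error alone, 11 of 71 members (15.5%) left out 1 on the same side in both kinds of cells, against 16.1% of all tested genes (10.2% higher and 5.95% lower). They were CCL2, IL6R, IL6ST, IL1RAP, IL7R and IL13RA2 on the higher side and CXCL16, IL17RC, IL4I1, NFKB2 and RELB on the lower side. Over all 71 members 33 were positive and 38 negative, with a median log2 fold change of -0.06, beside 0.00055 over all tested genes. Both pairs lay on the same side of 1 for 41 members (57.7%), 17 higher and 24 lower, against 61.9% of all tested genes (32.4% higher and 29.4% lower).

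**Figure D4:**
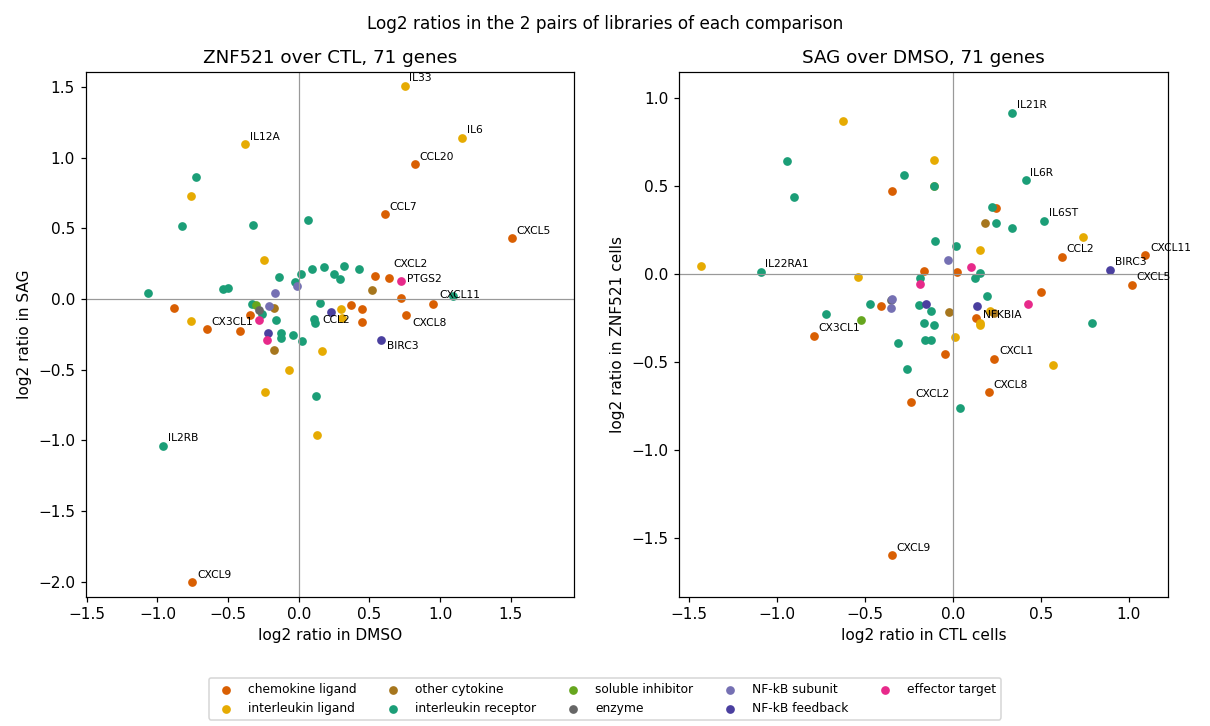
Log2 ratios of the 71 kept members in the 2 pairs of libraries of each comparison, for ZNF521 over CTL with DMSO on the x axis and SAG on the y axis (left), and for SAG over DMSO with CTL cells on the x axis and ZNF521 cells on the y axis (right), 1 point per gene coloured by role. IL6, CCL20 and CCL7 lie in the upper right of the left plot and IL2RB in its lower left, whereas BIRC3 and CCL2 lie to the right near or below 0 on its y axis.

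The CTL library with DMSO was the lowest of the 4 for 22 of 71 members (31.0%), beside 37.5% of all tested genes, and these were 13 of the 31 ligands and other cytokines (41.9%), CCL2, CCL5, CCL7, CCL20 and IL6 among them, 6 of the 29 receptors (20.7%), BIRC3, NFKBIA and PTGS2. The ZNF521 library with DMSO was the highest for 20 of 71 members (28.2%) beside 20.9% of all tested genes, and the ZNF521 library with SAG the lowest for 25 of 71 (35.2%) beside 21.3%. The fold changes moved with transcript GC as well. Across the 71 members, which share the same 4 libraries, Spearman's rho between GC content and log2 fold change was -0.45 for ZNF521 and -0.46 for SAG, and across 14601 tested genes with a transcript it was -0.36 and -0.65. The 17 members in the lowest of 5 equal GC classes, with CXCL5, CCL20, CCL7, CXCL8, IL6ST, BIRC3 and PTGS2 among them, had a median log2 fold change of 0.20 for ZNF521 beside 0.12 over all genes of that class, and of 0.19 for SAG beside 0.25. The 9 in the highest class, which held NFKB2 and RELB, had -0.13 beside -0.09 for ZNF521 and -0.22 beside -0.24 for SAG. IL6 (47.3% GC) lay in class 3 of the 5 and IL2RB (56.99% GC) in class 4. The part of GC content in the single fold changes was not tested.

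Of 34 tested genes that transmit signals to NF-kB, 1 met the unadjusted limit for ZNF521 and 3 met it for SAG, beside 5.48% and 11.3% of all tested genes. For ZNF521 18 were positive and 16 negative, and CD40, a receptor of the TNF family, had the smallest p, with 62.4 with SAG and 66.9 with DMSO in ZNF521 cells, against 32.7 with SAG and 40.2 with DMSO in CTL cells (log2 fold change 0.82, standard error 0.270, edgeR adjusted p = 0.854). RELA, the main partner of p50, had 1387 with SAG and 1470.4 with DMSO in ZNF521 cells, against 1370.2 with SAG and 1647 with DMSO in CTL cells. For SAG, BIRC2, the paralogue of BIRC3, was higher at a log2 fold change of 0.37, and BCL3, a nuclear IkB protein (-0.49), and TRADD, an adaptor of the TNF receptor (-0.43), were lower, each within the unadjusted limit in edgeR and none within the adjusted one. A list of NF-kB targets held 19 tested genes, of which TRAF1, TNIP1 and NFKBIE were also among the 34. Of the 19, 1 met the unadjusted limit in edgeR in each comparison, and 8 were positive and 11 negative for ZNF521. MMP9, a matrix protease, was higher, with 50.6 with SAG and 67.9 with DMSO in ZNF521 cells, against 38.3 with SAG and 28.1 with DMSO in CTL cells (log2 fold change 0.82, edgeR adjusted p = 0.893). For SAG 5 were positive and 14 negative, and C3, the central complement protein, was lower, with 603 in ZNF521 cells and 665 in CTL cells with SAG, against 962 in ZNF521 cells and 1185 in CTL cells with DMSO (log2 fold change -0.75, edgeR adjusted p = 0.316).

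Of 31 chemokine and cytokine receptors outside the naming rule of the members, 14 were tested, and 1 higher and 3 lower met the unadjusted limit for ZNF521, beside 2.36% and 3.11% of all tested genes. LIFR, the partner of gp130 for LIF, was higher in ZNF521 cells, with 533 with SAG and 441 with DMSO in ZNF521 cells, against 368 with SAG and 359.9 with DMSO in CTL cells (log2 fold change 0.41, edgeR adjusted p = 0.902), and OSMR, the partner of gp130 for oncostatin M, was lower, with 606 with SAG and 510.4 with DMSO in ZNF521 cells, against 652 with SAG and 836 with DMSO in CTL cells (log2 fold change -0.42, edgeR adjusted p = 0.907). CSF1R, the receptor of IL-34 and a marker of macrophages, was lower as well, with 16.03 with SAG and 30.9 with DMSO in ZNF521 cells, against 36.1 with SAG and 56.3 with DMSO in CTL cells (log2 fold change -1.01, edgeR adjusted p = 0.789). ACKR1, the remaining lower gene, had 8.44 with SAG and 12.3 with DMSO in ZNF521 cells. In CTL cells ACKR1 had 14.7 with SAG and 33.2 with DMSO (log2 fold change -1.17, edgeR adjusted p = 0.888). All adjusted p of these genes were above 0.05 in edgeR. Of 18 genes of JAK and STAT signalling, which carries the signal of gp130, 0 met the unadjusted limit in edgeR in either comparison, and SOCS3, a feedback target of STAT3, had 517 with SAG and 539 with DMSO in ZNF521 cells, against 444 with SAG and 470.4 with DMSO in CTL cells. Of 17 immediate early genes, 0 met it for ZNF521, beside 5.48% of all tested genes, and 3 met it for SAG, beside 11.3%. The 3 were EGR1, NR4A1 and KLF4, all lower at log2 fold changes of -0.66, -0.52 and -0.42.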

How the data were processed

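RNA of 4 DAOY libraries was analysed, 1 per condition. Per the labels and the submitters' processing notes, the authors built strand-specific, poly-A-enriched and ribosomal RNA-depleted libraries and processed the reads with STAR 2.7.0e, hg38 and DESeq2. Whole counts per gene were deposited for 20363 genes. The deposited normalized table holds signal values, which are the authors' counts divided by 1 size factor per library (0.887 to 1.19), for 19860 genes, with the 503 genes of total count 1 left out. Which annotation, strand setting and filters the counting used is not given in the sources used here.

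The test was edgeR's quasi-likelihood test (edgeR 4.0.16 in R 4.3.3, TMM, glmQLFit, glmQLFTest) on the raw counts of 14970 genes that reached 10 counts in 2 or more libraries, with ZNF521 and treatment as additive terms and Benjamini-Hochberg adjustment over all tested genes. The model leaves 1 residual degree of freedom, moderated by a prior of 11.7. That degree of freedom holds only the departure from additive effects of ZNF521 and SAG in these libraries. The p-values therefore do not measure a spread between replicate cultures. Pair ratios have exact 95% Clopper-Pearson intervals, which cover counting error only. Each library was left out in turn, and RLE factors, library size alone, no filter, a minimum mean count of 50, limma-trend 3.58.1, DESeq2 1.42.0 and a model with no block were tried. The fits with a library left out had no block, so that each comparison also took in the other factor. Tables were made with Python 3.11.15, pandas 2.3.3, numpy 2.4.6 and scipy 1.17.1, and plots with matplotlib 3.10.9.

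Members and lists were chosen with earlier results of these data known. Values in all libraries are given for the 14 genes listed by name, for members with a mean of at least 100 normalized counts or an unadjusted p of at most 0.05, and for the 5 ligands and the 5 receptors of highest mean count, 45 genes in all. CXCL2, CXCL3, CXCL11 and IL33 were added after their values had been seen. Of the context lists some genes were named by smallest unadjusted p or, where they check a label, by level. Others, among them CXCR4, CCR1, RELA, SOCS3 and LUM, were named outside these rules, and not every gene of small p was named. Exon length and GC content came from GENCODE 44, and promoters from RefSeq (GRCh38.p14), with an entry for 57 of 71 kept members. Lists of genes from the paper were not used.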

Additional observations from a re-analysis of the deposited data

Results flagged for a closer look

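In 3 genes the ratio between conditions lay above 1 in 1 pair of libraries and below 1 in the other, in each pair beyond counting error. BIRC3 had a ratio of ZNF521 to CTL cells of 0.818 in SAG and 1.50 in DMSO. CCL2 had 0.951 in SAG and 1.37 in DMSO. NFKBIA had 0.938 in SAG and 1.17 in DMSO, and a ratio of SAG to DMSO of 0.883 in ZNF521 cells and 1.10 in CTL cells. These differences were not tested, since each condition has 1 library. For BIRC3, CCL2 and NFKBIA the CTL library with DMSO was the lowest of the 4.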

How the results depend on the processing

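The design has no replicate, so each library left out leaves a condition empty, the block drops out, and a lone library is assumed to vary like the others. With the block gone, the fold change for SAG also takes in the difference between the kinds of cells. That for ZNF521 likewise takes in the difference between treatments. The labels give no replicate numbers, and the additive model pairs the libraries by the other factor as block. The count of members past the adjusted p for ZNF521 was 0, it was 1 (IL2RB) with no filter on low counts, and it ran from 0 to 9 with a library left out, where the 9 came without the CTL library with SAG, which called 15.6% of all genes. For SAG it was 0 and ran from 0 to 16, where the 16 came without the ZNF521 library with DMSO, which called 30.6% of all genes. By an unadjusted p up to 0.05 the count for ZNF521 was 8, and it was 3 with a mean count of at least 50, which tested 48 members, 1 by DESeq2, 4 with no block and from 1 (without the ZNF521 library with SAG) to 24 (without the CTL library with SAG) with a library left out. For SAG it was 4, and it was 1 by DESeq2, 2 with no block and from 0 (without the ZNF521 library with SAG) to 23 (without the ZNF521 library with DMSO) with a library left out. The causes were not tested.

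Of the log2 fold changes of named genes, 11 values reversed, all with a library left out. Another 1030 stayed on the same side of the adjusted threshold, and the rest passed it. Genes whose fold change was smaller than its standard error were not counted as reversed, so that the 1030 include changes of sign. That of BIRC3 for ZNF521 ran from -0.29 to 0.59. The reversed values for ZNF521 came without the CTL library with DMSO (CCL2, CXCL11, IL17RA and IL4I1) or the ZNF521 library with DMSO (CXCL8, IL17RD and IL7R). The reversed values for SAG came without the ZNF521 library with DMSO (CXCL8 and IL17RD), or without the CTL library with DMSO or the ZNF521 library with SAG (IL2RB). Within each kind of cells the ratio of SAG to DMSO in IL2RB was below 1, at 0.763 in ZNF521 cells and 0.805 in CTL cells. Both counting intervals held 1. With a library left out the range for ZNF521 was -0.11 to 0.50 in CCL2, -0.0752 to 1.005 in CXCL11, -0.0121 to 0.66 in CXCL8, -0.42 to 0.0632 in IL17RA, -0.49 to 0.0210 in IL17RD, -0.36 to 0.00719 in IL4I1 and -0.38 to 0.00654 in IL7R. For SAG it was -0.64 to 0.14 in CXCL8, -0.0663 to 0.45 in IL17RD and -0.95 to 0.16 in IL2RB. IL6, CCL20 and CXCL5 had 11 to 56 raw counts per library, which sets the width of their counting intervals.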
